A study of Mus musculus with 6 samples.

Results

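Claudin and keratin transcripts were examined in murine small cell lung cancer (SCLC) cells, 3 libraries of ERBB2 KO cells (ERBB2 KO 1 to 3) and 3 of unedited WT cells (WT 1 to 3). The members were all rows of the deposited table whose symbol is Cldn or Krt followed by a number. These were 34 of the 20273 gene rows, 12 claudins and 22 keratins. Of them 15 reached 1 CPM (CPM, the reads of a gene scaled to its library's total) in at least 1 library, namely 5 claudins and 10 keratins, and the other 19 stayed under 1 CPM in every library. For ERBB2 KO cells, Erbb2 was targeted with a transfected Cas9 construct, followed by puromycin selection and plate sorting of single clones. According to the methods of the study, its murine lines came from tumors of mice with deleted Rb1 and Trp53, a background that both groups would then share, and were grown in RPMI medium with serum. The labels give lung origin and an epithelial cell type, but neither the line nor whether the libraries of a group were separate clones or cultures. The study calls them 3 biological replicates per group, without saying whether these were clones or cultures. The p-values thus measure only the spread between these libraries. The comparison asked how the claudin and keratin transcripts of SCLC cells with targeted ERBB2 differed from those of WT cells.

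Claudins are membrane proteins that form the strands of tight junctions. Some seal the space between neighbouring epithelial cells and others form selective pores in it, and most bind scaffold proteins of the Tjp family inside the cell. Keratins are the intermediate filament proteins of epithelial cells and assemble only as heteropolymers of a type I and a type II chain. Krt8 and Krt18 form the filaments of simple epithelia, including lung epithelium, and simple epithelial keratins are also found in SCLC.

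The libraries did not group by genotype. They held 8927461 to 11792342 reads in ERBB2 KO and 10983851 to 13255671 reads in WT, so that 3 reads correspond to 0.226 to 0.336 CPM, a limit of counting error only. Erbb2 was at 12.1, 6.19 and 2.80 CPM in ERBB2 KO 1 to 3, against 10.7, 3.95 and 6.64 CPM in WT 1 to 3. Where the edit lies is not stated, so the transcript level does not check the labels. The study checked its knockouts by western blot and flow cytometry. Xist had 1, 1 and 0 reads in ERBB2 KO 1 to 3, against 0, 2576 and 2360 reads in WT 1 to 3, which sets WT 2 and WT 3 apart from the other 4 libraries. Across 11790 genes, WT 1 correlated more closely with ERBB2 KO 2 (r = 0.959) and ERBB2 KO 3 (r = 0.955) than with WT 2 (r = 0.919) or WT 3 (r = 0.931). ERBB2 KO 1 stood apart, with r = 0.882 to 0.913 to the other 5 libraries. These correlations are across genes, which are not independent replicates. What sets WT 2 and WT 3 apart cannot be told apart from the genotype in these 2 libraries, so the comparison of the 3 ERBB2 KO libraries with WT 1 alone is given beside the results.

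The epithelial label was checked against defining markers. Cdh1, which encodes E-cadherin, had at most 0.336 CPM in 5 libraries and 10.0 CPM in WT 3. Of 4 epithelial markers measured, 3 reached 1 CPM in any library, and their summed level was 1.90 to 6.13 CPM in ERBB2 KO and 0.967 to 10.9 CPM in WT. Only Muc1 was tested. It had 1.34, 2.20 and 5.09 CPM in ERBB2 KO 1 to 3, against 1.18, 0.322 and 0.453 CPM in WT 1 to 3 (limma, adjusted p = 0.350). It was higher in ERBB2 KO without overlap, as were 8.76% of all tested genes. Epcam was not analysed here. The neuroendocrine SCLC markers Chgb, Syp and Dll3 were under 1 CPM in every library, whereas Ncam1 had 121 to 353 CPM in ERBB2 KO and 277 to 1253 CPM in WT. Uchl1, the fifth of these markers measured, had 0 reads in all 3 ERBB2 KO libraries, against 0.546, 26.6 and 10.7 CPM in WT 1 to 3, highest in the WT libraries that held Xist reads. Cdh1, Chgb, Syp and Dll3 were at or near 0 in at least 5 libraries. The part of these differences in the claudin and keratin values was not tested.

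Krt8 and Krt18 made up most of the keratin transcripts in all 6 libraries, and among claudins only Cldn12 was read in every library at more than 20 CPM. Krt7 and Krt19, the other keratins above 100 CPM in any library, ran over more than 2 orders of magnitude between libraries. Cldn3 was present in 3 libraries and had 0 reads in the other 3. Cldn9 was higher in all 3 ERBB2 KO libraries than in any WT library, and Krt7 was lower. These 2 were the only ones of 12 tested members whose groups did not overlap, against 19.4% of all 11803 genes tested. No claudin or keratin passed the test over all genes, and neither did any other gene (0%).

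The promoters of 4 members are shown because these genes mark the main patterns described below. These are Krt8 and Krt18, the abundant filament pair, Krt7, lower in ERBB2 KO, and Cldn3, present or absent by library. Each window covers 250 bases before to 50 after the gene start and was taken from RefSeq for GRCm38.p6 (the build called mm10 in the processing notes) and is written 5′ to 3′ on the strand of the gene. Capitals mark the letters CACCTG on either strand (an E-box of the kind bound by Snai and Zeb repressors), TATAAA on either strand (the TATA box) and GGGCGG on either strand (a GC box). The Krt8 window (chr15:102004293-102004592, minus strand), the Krt18 window (chr15:102027966-102028265, plus strand), the Krt7 window (chr15:101412153-101412452, plus strand) and the Cldn3 window (chr5:134985964-134986263, plus strand) read as follows.
Krt8: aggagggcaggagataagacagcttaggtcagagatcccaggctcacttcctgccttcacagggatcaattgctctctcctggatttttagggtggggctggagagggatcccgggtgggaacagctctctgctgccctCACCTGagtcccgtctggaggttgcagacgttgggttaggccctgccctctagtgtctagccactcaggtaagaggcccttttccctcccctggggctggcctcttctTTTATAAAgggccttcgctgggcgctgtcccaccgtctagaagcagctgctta
Krt18: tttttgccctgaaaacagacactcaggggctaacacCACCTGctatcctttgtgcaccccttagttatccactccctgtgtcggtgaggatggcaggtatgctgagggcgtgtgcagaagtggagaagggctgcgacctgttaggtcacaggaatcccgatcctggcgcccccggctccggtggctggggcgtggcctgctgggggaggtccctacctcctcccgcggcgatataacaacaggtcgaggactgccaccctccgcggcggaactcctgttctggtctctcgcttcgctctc
Krt7: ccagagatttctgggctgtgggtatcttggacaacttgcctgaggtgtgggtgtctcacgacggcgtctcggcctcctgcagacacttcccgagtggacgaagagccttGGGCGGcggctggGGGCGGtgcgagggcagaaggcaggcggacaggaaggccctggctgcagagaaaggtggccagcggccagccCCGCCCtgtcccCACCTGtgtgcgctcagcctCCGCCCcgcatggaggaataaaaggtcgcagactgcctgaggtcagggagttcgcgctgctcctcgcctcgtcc
Cldn3: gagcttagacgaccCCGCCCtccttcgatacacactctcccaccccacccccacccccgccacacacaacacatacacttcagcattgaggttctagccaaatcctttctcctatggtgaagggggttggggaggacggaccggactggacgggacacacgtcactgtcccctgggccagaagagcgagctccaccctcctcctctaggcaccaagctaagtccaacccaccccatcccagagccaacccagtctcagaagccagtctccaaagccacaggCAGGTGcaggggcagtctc
All 4 windows held a single E-box. Among all 32851 windows of this length, 20.2% held this E-box, 13.6% held TATAAA and 35.7% held GGGCGG. The capitals TTTATAAA in Krt8 hold 2 overlapping matches to the TATA box, which reads TTTATA on the other strand. Krt7 held 4 GC boxes, Cldn3 held 1, and Krt8 and Krt18 held none. Of the 15 described members 11 had a window. The E-box was found in 6 of these (Cldn3, Krt7, Krt8, Krt10, Krt18 and Krt79), TATAAA in 4 (Cldn2, Krt8, Krt10 and Krt76) and GGGCGG in 3 (Cldn3, Cldn12 and Krt7). A match is a string of letters and does not show that a factor binds there.

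Krt8 and Krt18, the simple epithelial filament pair, were the most abundant members. Krt8, the type II chain (chromosome 15, 101996711 to 102004342), had 590, 973 and 872 CPM in ERBB2 KO 1 to 3, against 1060, 441 and 402 CPM in WT 1 to 3. Krt18, the type I chain (chromosome 15, 102028216 to 102032026), had 816, 719 and 945 CPM in ERBB2 KO 1 to 3, against 1103, 282 and 337 CPM in WT 1 to 3. For both genes WT 1 was the highest library and WT 2 and WT 3 were the lowest, so the groups overlapped through WT 1 alone. The means were 812 ± 198 CPM in ERBB2 KO and 635 ± 369 CPM in WT for Krt8, and 827 ± 114 CPM in ERBB2 KO and 574 ± 459 CPM in WT for Krt18 (SD, n = 3 each). The log2 difference, taken throughout on log2(CPM + 1) as ERBB2 KO minus WT, was 0.80 ± 0.49 (SE) for Krt18 (limma, adjusted p = 0.487) and 0.47 ± 0.39 for Krt8 (limma, adjusted p = 0.609). Without WT 1 the Krt18 difference was 1.41 and passed the test (limma, adjusted p = 0.0378), while that of Krt8 was 0.91 and did not (limma, adjusted p = 0.129). Against WT 1 alone both differences were negative, at -0.42 each, with the lone WT library assumed to vary like the others. Both genes are known to have many processed pseudogenes, and how reads shared with these copies were counted is not stated. The genes are neighbours, 23873 bases apart.

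The balance of the pair varied within both groups. There were 0.723, 1.35 and 0.923 Krt8 reads per Krt18 read in ERBB2 KO 1 to 3, against 0.962, 1.57 and 1.20 in WT 1 to 3. The groups overlapped, and ERBB2 KO 1 had the lowest ratio and WT 2 the highest. Over all keratin rows there were 0.746, 1.18 and 0.832 type II reads per type I read in ERBB2 KO 1 to 3, against 0.845, 2.43 and 1.11 in WT 1 to 3. WT 2 stood out through Krt7, a type II chain. Per kilobase of the canonical transcript in GENCODE vM39 (GRCm39), the mean level over the 6 libraries was 487 CPM for Krt18, 369 CPM for Krt8, 56.5 CPM for Krt19, 15.1 CPM for Cldn3 and 14.1 CPM for Krt7, and under 10 CPM for the other 10. These levels per kilobase assume reads along the whole transcript. The labels name a total RNA preparation and the methods of the study one of 3′ ends, under which length would not matter, and which applied was not settled.

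**Figure D1:**
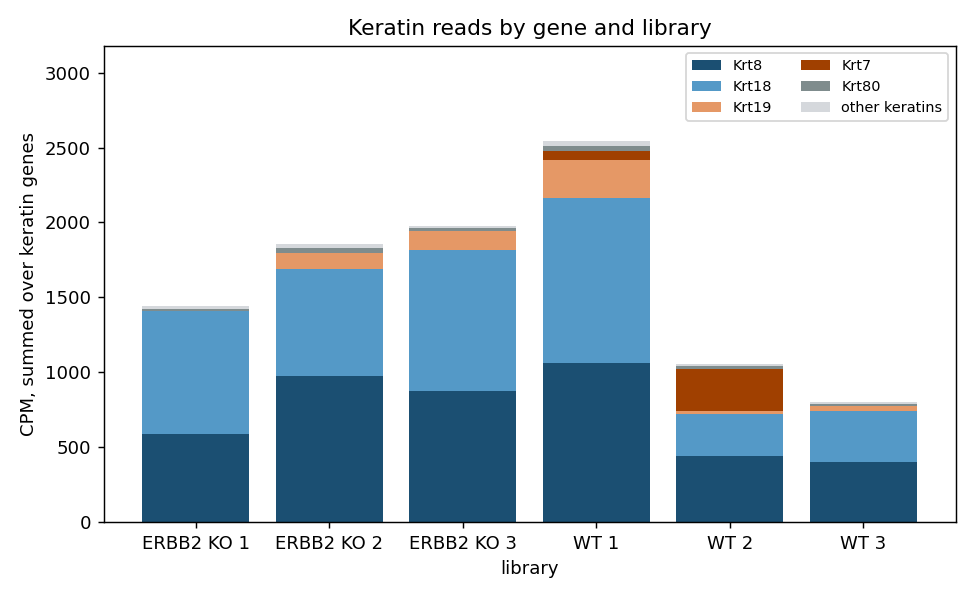
Keratin reads summed over genes (CPM, y axis from 0) in each of the 6 libraries, ERBB2 KO left and WT right, with segments for Krt8, Krt18, Krt19, Krt7, Krt80 and all other keratins. Krt8 and Krt18 fill most of every bar, WT 1 has the tallest bar at 2542 CPM, and Krt7 forms a visible segment only in WT 1 and WT 2.

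All keratins together summed to 1442, 1857 and 1978 CPM in ERBB2 KO 1 to 3, against 2542, 1054 and 803 CPM in WT 1 to 3, as the stacked plot of keratin reads shows. Krt8 and Krt18 held 97.5%, 91.1% and 91.9% of keratin reads in ERBB2 KO 1 to 3, against 85.1%, 68.6% and 92.1% in WT 1 to 3. The ERBB2 KO sums lay between the highest and the other WT libraries. In bulk RNA, fewer cells of a type and less RNA per cell cannot be told apart.

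Krt7, a type II keratin of ducts and other simple epithelia (chromosome 15, 101412403 to 101427806), was nearly absent from ERBB2 KO. It had 2.02, 0.254 and 0.519 CPM in ERBB2 KO 1 to 3, against 61.3, 279 and 2.19 CPM in WT 1 to 3. WT 2 was highest, WT 1 followed, and WT 3 was close to the ERBB2 KO libraries. The groups did not overlap, but the nearest libraries rest on 18 reads in ERBB2 KO 1 (95% exact Poisson interval 1.20 to 3.19 CPM) and 29 reads in WT 3 (1.47 to 3.14 CPM), which differ by less than counting error. The log2 difference was -4.41 ± 1.46 (SE), with an unadjusted p of 0.0183 and an adjusted p of 0.350 (limma). It was -5.12 against WT 1 alone, -6.20 without WT 3 and -2.97 without WT 2. Krt7 thus differed more than 100-fold among the WT libraries themselves.

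Krt19, a type I keratin of simple and ductal epithelia that lacks the usual tail domain (chromosome 11, 100140810 to 100145926), had 0.112, 108 and 122 CPM in ERBB2 KO 1 to 3, against 253, 17.2 and 33.4 CPM in WT 1 to 3. ERBB2 KO 1 had a single read (95% exact Poisson interval up to 0.624 CPM), while ERBB2 KO 2 and 3 lay between WT 1 and the other WT libraries. The log2 difference was -1.14 ± 1.87 (SE), was not called (limma, adjusted p = 0.814) and turned to 1.10 without ERBB2 KO 1. It was -3.37 against WT 1 alone and -0.02 without WT 1. Krt18 was the main type I chain in every library, with or without Krt19.

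**Figure D2:**
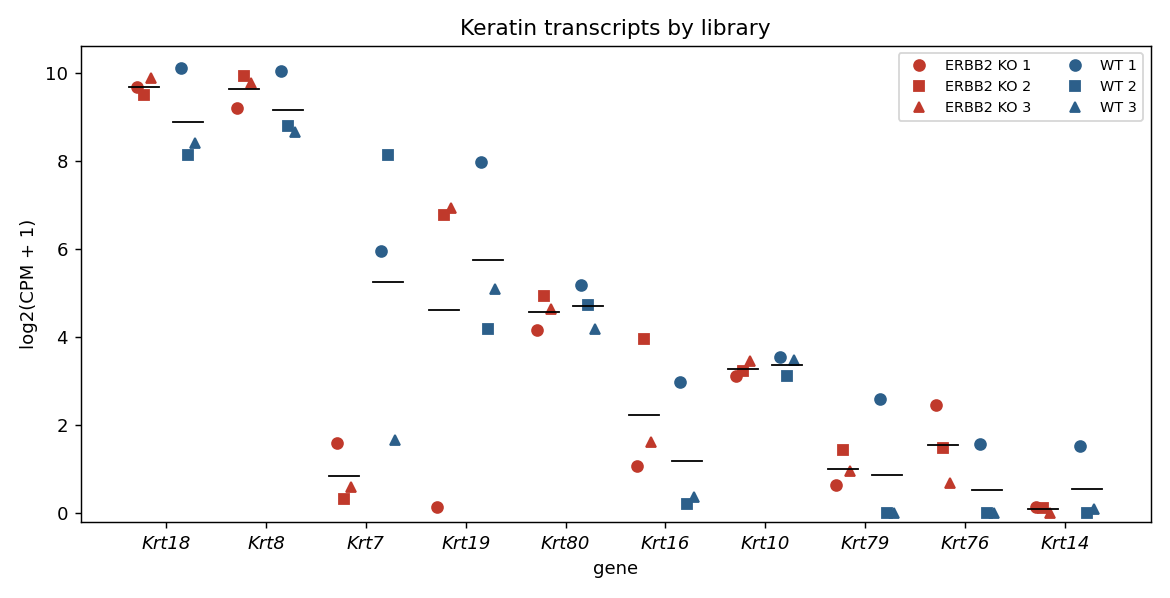
Level of the 10 described keratins in each library (log2(CPM + 1), y axis), ERBB2 KO in red left of WT in blue for every gene, with a symbol for each replicate number and a bar at the group mean. Krt8 and Krt18 lie at the top, Krt7 has all ERBB2 KO points below the WT points, and Krt19 has ERBB2 KO 1 near 0.

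Krt80, a type II keratin found in many epithelia (chromosome 15, 101348315 to 101370162), had 16.9, 29.7 and 23.9 CPM in ERBB2 KO 1 to 3, against 35.4, 25.8 and 17.4 CPM in WT 1 to 3. The groups overlapped across nearly their whole range. The log2 difference was -0.13 ± 0.33 (SE, limma, 95% interval -0.90 to 0.64, adjusted p = 0.881), and it changed sign to 0.08 without ERBB2 KO 1 and to 0.11 without WT 1. Krt10, the suprabasal type I keratin of the epidermis (chromosome 11, 99385254 to 99397449), had 7.73, 8.40 and 10.1 CPM in ERBB2 KO 1 to 3, against 10.7, 7.73 and 10.1 CPM in WT 1 to 3. Its standard error was the smallest among the 12 tested members, with a log2 difference of -0.11 ± 0.25 (SE, limma, 95% interval -0.69 to 0.48, adjusted p = 0.875).

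Krt16, a type I keratin induced in injured and stressed epidermis (chromosome 11, 100246091 to 100248902), had 1.12, 14.7 and 2.08 CPM in ERBB2 KO 1 to 3, against 6.92, 0.161 and 0.302 CPM in WT 1 to 3. ERBB2 KO 2 and WT 1 were high, and WT 2 and WT 3 were at or near the level of 3 reads. Krt16 had a log2 difference of 1.03 ± 0.97 (SE, limma, adjusted p = 0.649) and -0.76 against WT 1 alone. The remaining described keratins were weak. Krt76, a type II keratin of oral epithelium, had 0.623 to 4.48 CPM in ERBB2 KO, against 2.00 CPM in WT 1 and 0 reads in WT 2 and WT 3 (log2 difference 1.01 ± 0.61 SE, limma adjusted p = 0.484, and -0.04 against WT 1 alone). Krt79, a type II keratin of the hair follicle and its glands, had 0.560 to 1.70 CPM in ERBB2 KO, against 5.01 CPM in WT 1 and 0 reads in WT 2 and WT 3. Krt14, the type I keratin of basal cells, had at most 0.112 CPM in ERBB2 KO, against 1.91 CPM in WT 1 and at most 0.0754 CPM in the other WT libraries. Krt79 and Krt14 were not tested, since fewer than 3 libraries reached 1 CPM. Krt14 and Krt16 are close in sequence to each other and to further type I keratins, so reads of these genes may be shared between copies.

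Cldn12, which lacks the scaffold-binding end of most claudins (chromosome 5, 5505015 to 5514976), was the only claudin above 20 CPM in every library. It had 115, 26.5 and 47.6 CPM in ERBB2 KO 1 to 3, against 34.1, 33.4 and 23.7 CPM in WT 1 to 3. ERBB2 KO 1 stood above the rest, ERBB2 KO 2 lay within the WT range, and the groups overlapped. Cldn12 had a log2 difference of 0.79 ± 0.49 (SE, limma, adjusted p = 0.497) and 0.24 without ERBB2 KO 1. Cldn12 held 95.8%, 46.7% and 40.3% of claudin reads in ERBB2 KO 1 to 3, against 49.0%, 97.4% and 93.2% in WT 1 to 3.

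Cldn3, a barrier-forming claudin of many epithelia (chromosome 5, 134986214 to 134987476), made up most of the remaining claudin reads in the 3 libraries that held it. It had 0, 19.4 and 61.8 CPM in ERBB2 KO 1 to 3, against 33.0, 0 and 0 CPM in WT 1 to 3. The 3 libraries with Cldn3 held 229 to 595 reads of it and the 3 without held none, for which the level of 3 reads is 0.336 CPM in ERBB2 KO 1, 0.242 CPM in WT 2 and 0.226 CPM in WT 3. The 95% exact Poisson intervals, which are two-sided, reach up to 0.413, 0.297 and 0.278 CPM in these libraries, and both limits cover counting error only. Presence did not follow the genotype, with 1 ERBB2 KO library and 2 WT libraries at 0. The log2 difference was 1.75 ± 1.84 (SE) and was not called (limma, adjusted p = 0.689). It was -1.65 against WT 1 alone, 3.47 without ERBB2 KO 1 and 0.48 without ERBB2 KO 3.

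**Figure D3:**
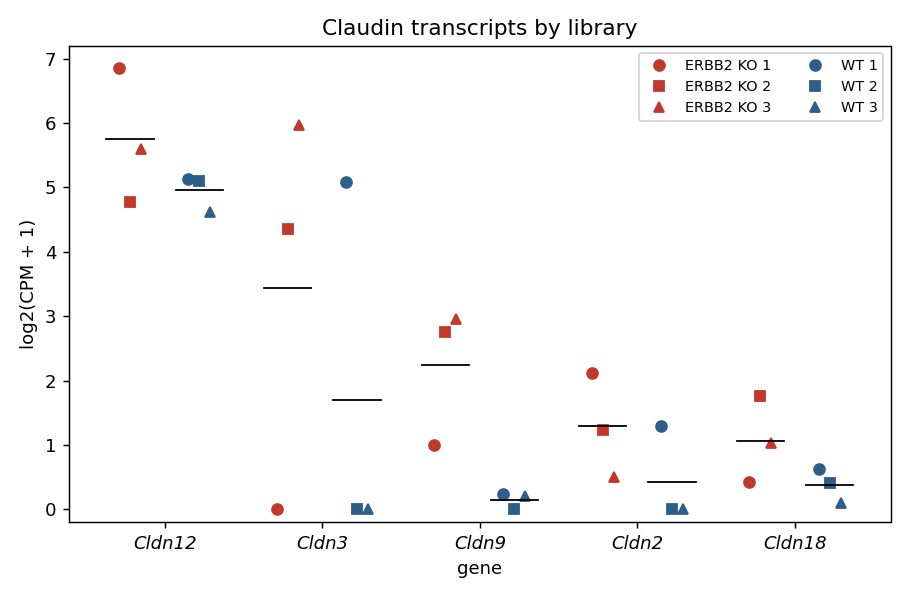
Level of the 5 described claudins in each library (log2(CPM + 1), y axis), ERBB2 KO in red left of WT in blue for every gene, with a symbol for each replicate number and a bar at the group mean. Cldn3 is split into 3 libraries at 0 and 3 at 19.4 to 61.8 CPM, and all ERBB2 KO points of Cldn9 lie above the WT points.

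Cldn9, a barrier-forming claudin known in mice for its need in hearing (chromosome 17, 23682584 to 23684026), was weak but higher in ERBB2 KO. It had 1.01, 5.77 and 6.75 CPM in ERBB2 KO 1 to 3, from 9, 68 and 65 reads, against 0.182, 0 and 0.151 CPM in WT 1 to 3, from 2, 0 and 2 reads. The groups did not overlap, and all WT values were under the level of 3 reads. The means were 4.51 ± 3.07 CPM in ERBB2 KO and 0.111 ± 0.0974 CPM in WT (SD, n = 3 each). Cldn9 passed the filter on low values only through its 3 ERBB2 KO libraries, so it had to differ to be tested at all. The log2 difference was 2.09 ± 0.54 (SE), with an unadjusted p of 0.00554 and an adjusted p of 0.321 (limma). At such low WT values its size depends on the pseudocount, and on the deposited log2 scale it was 3.72. It was 2.00 against WT 1 alone. Without ERBB2 KO 1 it was 2.71 and passed the test (limma, adjusted p = 0.0372). Cldn6, a close paralog whose gene lies 137 bases from it, had at most 0.377 CPM, and reads shared between the copies cannot be assigned with certainty.

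Cldn2, which forms a pore for cations and water (chromosome X, 139800808 to 139811386), had 0.415 to 3.36 CPM in ERBB2 KO, against 1.46 CPM in WT 1 and 0 reads in WT 2 and WT 3. Its log2 difference was 0.86 ± 0.55 (SE, limma, adjusted p = 0.510) and -0.01 against WT 1 alone. Cldn18, which has a lung form in alveolar epithelium and a stomach form, had 0.336 to 2.37 CPM in ERBB2 KO and 0.0754 to 0.546 CPM in WT and was not tested. The groups overlapped for both genes. All claudins together summed to 120, 56.6 and 118 CPM in ERBB2 KO 1 to 3, against 69.5, 34.3 and 25.4 CPM in WT 1 to 3.

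Of the 11803 genes tested none passed at an adjusted p under 0.05 (0%, limma), with 0 calls also when the recovered reads were scaled with TMM factors and fitted with voom, and 1561 genes (13.2%, with 5.96% higher and 7.27% lower in ERBB2 KO) had an unadjusted p under 0.05. Of the 34 members 12 were tested, 4 claudins and 8 keratins, and 2 of these, Cldn9 and Krt7, had an unadjusted p under 0.05. The groups did not overlap for the same 2 members, against 19.4% of all tested genes (8.76% with higher and 10.6% with lower values in ERBB2 KO). These counts, of 2 members each, are near what the shares over all genes would give for 12 genes. The median difference was 1.30 for the claudins, with 4 above 0, and 0.18 for the keratins, with 4 above and 4 below 0, beside -0.04 over all tested genes, of which 46.8% were above and 53.2% below 0. The 4 tested claudins are those that passed the filter on low values, Cldn9 only through ERBB2 KO, so these medians lend no support to a shift of the claudins. Without the filter the median was 0.13 over all 12 claudins and -0.0011 over all 22 keratins, and it was 0.86 and 0.02 over the members with 1 CPM in any library. The claudin median was 0.77 without WT 3 and 0.88 without WT 2, and the keratin median lay between 0.04 without ERBB2 KO 2 and 0.62 without ERBB2 KO 1.

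**Figure D4:**
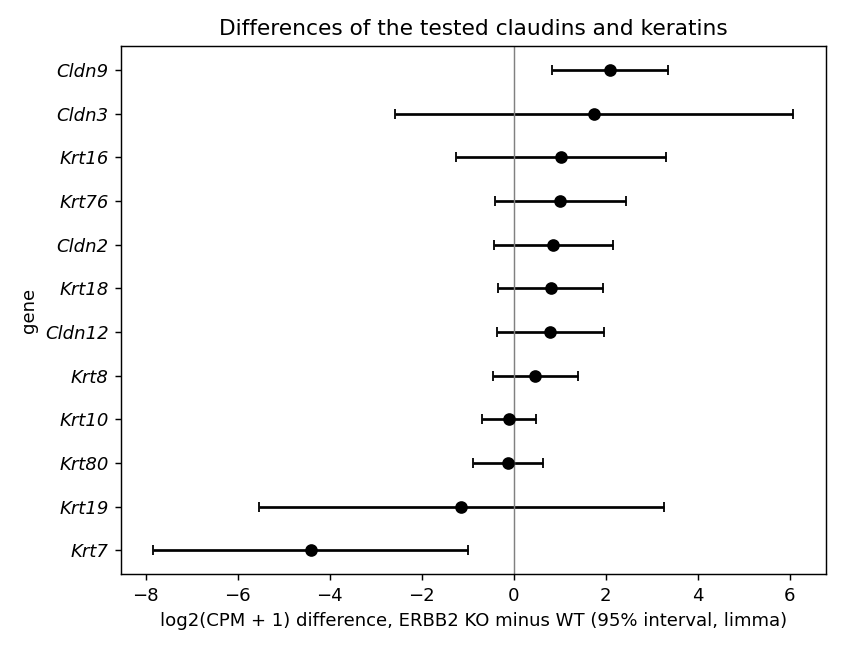
Difference of the 12 tested members (log2(CPM + 1), ERBB2 KO minus WT, x axis), with points for the limma estimate and bars for its 95% interval. The unadjusted intervals of Cldn9 (0.83 to 3.35) and Krt7 (-7.83 to -0.99) leave out 0, and those of the other 10 include it.

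Among the limma fits without a single library, members changed call or sign only without ERBB2 KO 1 or without WT 1. With array quality weights, which limma estimated at 0.268 for ERBB2 KO 1, 0.418 for WT 1 and 3.05 for WT 3, 1759 genes passed. These weights were taken from the same values fitted by group, so libraries far from their group counted less. The passes with weights are therefore no separate support for a difference. Of the members Krt18 (adjusted p = 0.0413), Krt8 (adjusted p = 0.0418), Cldn9 (adjusted p = 0.0169) and Cldn3 (adjusted p = 0.0396) passed in that limma fit, all with positive differences. Against WT 1 alone the differences of Krt8, Krt18, Krt16, Cldn3, Cldn2 and Krt76 were all negative, whereas Cldn9 stayed above 0 and Krt7 below it. When ERBB2 KO 1 was left out as well, for ERBB2 KO 2 and 3 against WT 1, a choice made after seeing the data, the difference was 2.62 for Cldn9 and -5.49 for Krt7, and 0 genes passed (limma, 1085 with an unadjusted p under 0.05).

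**Figure D5:**
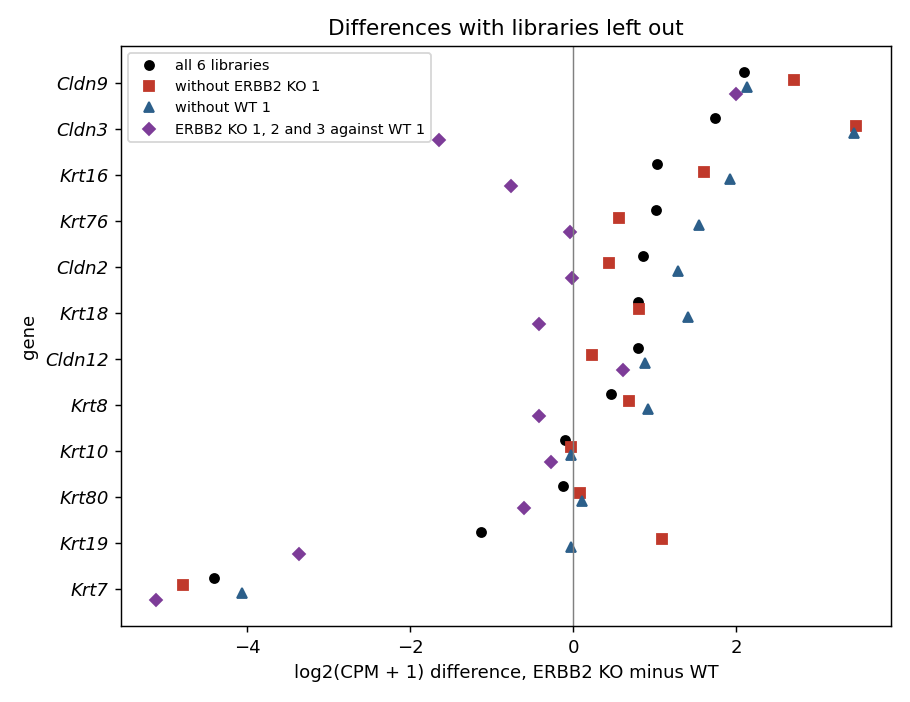
Difference of the 12 tested members (log2(CPM + 1), ERBB2 KO minus WT, x axis) with all 6 libraries, without ERBB2 KO 1, without WT 1 and for the 3 ERBB2 KO libraries against WT 1. Cldn9 lies above 0 and Krt7 below 0 in all 4 sets, while 6 members, Krt8, Krt18, Krt16, Krt76, Cldn2 and Cldn3, change sign against WT 1 alone.

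Of 24 measured genes for tight junction partners, 18 had enough reads to be tested. Of 18 tested genes for tight junction partners 7 were above and 11 below 0, with a median of -0.16, and 3 had an unadjusted p under 0.05, all lower in ERBB2 KO, beside 13.2% of all tested genes (7.27% lower). With so few genes this count does not set the partners apart. Prkci, the atypical kinase of the polarity complex, had 5.94, 16.03 and 9.24 CPM in ERBB2 KO 1 to 3, against 30.7, 59.7 and 39.9 CPM in WT 1 to 3, without overlap (log2 difference -2.01 ± 0.39 SE, limma adjusted p = 0.321). Its adaptors Pard6b (-1.42) and Pard6g (-0.998) also had negative log2 differences, and so had the junction protein Cgnl1 (-1.30). The related adaptor Pard6a did not (0.089). Tjp1, the main claudin scaffold, had 38.0, 72.6 and 47.6 CPM in ERBB2 KO 1 to 3, against 64.4, 46.6 and 43.8 CPM in WT 1 to 3. Ocln, the tight junction protein occludin, had at most 1.82 CPM. Lsr, which recruits proteins to junctions between 3 cells and was chosen after its values were seen, had 0.224, 24.3 and 22.6 CPM in ERBB2 KO 1 to 3, against 29.95, 0 and 0.679 CPM in WT 1 to 3. It was high in the same 3 libraries as Cldn3. These libraries, ERBB2 KO 2, ERBB2 KO 3 and WT 1, were alike across genes (r = 0.955 to 0.976). How many other genes split this way was not counted.

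Of 14 tested desmosome and keratin attachment genes 7 were above and 7 below 0 (median -0.01), and 2 had an unadjusted p under 0.05, both lower in ERBB2 KO, a share near the 13.2% of all tested genes. Ctnnd1, the p120 catenin of adherens junctions, had 34.3, 29.8 and 19.0 CPM in ERBB2 KO 1 to 3, against 71.2, 63.2 and 45.9 CPM in WT 1 to 3 (log2 difference -1.11 ± 0.28 SE, limma adjusted p = 0.321). Pkp2, a plakophilin of desmosomes, had a log2 difference of -0.79. The desmosomal membrane protein Perp (-2.46) and periplakin, Ppl (1.39), had larger log2 differences with overlapping groups. Dsp, the plakin that ties keratin filaments to desmosomes, was at 0.112, 1.36 and 0.831 CPM in ERBB2 KO 1 to 3, against 8.19, 0 and 0.151 CPM in WT 1 to 3. Its partner Jup was present in all 6 libraries, at 6.02 to 26.8 CPM in ERBB2 KO and 7.25 to 13.5 CPM in WT. Of 7 tested keratin partners and modifiers 3 were above and 4 below 0 (median -0.11), none with an unadjusted p under 0.05. Those with the smallest p were the keratin chaperone Dnajb6 (-0.23), the keratin-binding Tchp (0.44) and Fbf1 (0.43) and epiplakin, Eppk1 (-0.47).

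Among intermediate filament genes other than keratins, 4 of 8 tested were above and 4 below 0 (median -0.07). Vim, the filament protein of mesenchymal cells, had 2557, 3146 and 3489 CPM in ERBB2 KO 1 to 3, against 3913, 3253 and 3308 CPM in WT 1 to 3, more than all keratins together in each library. Des, the muscle filament protein, was higher without overlap at 1.79, 3.05 and 8.52 CPM in ERBB2 KO 1 to 3, against 0.182, 0.0806 and 0.302 CPM in WT 1 to 3 (log2 difference 2.01 ± 0.48 SE, limma adjusted p = 0.321). Like Cldn9, it passed the filter only through ERBB2 KO. Nes, the filament protein of neural progenitors, had a log2 difference of -2.67, and the lamina gene Lmnb1 and the lens filament gene Bfsp1 had -0.53 and 0.43.

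Regulators known for epithelial genes were split. Of 7 tested 3 were above and 4 below 0 (median -0.19), and Klf4 alone had an unadjusted p under 0.05 (log2 difference 1.19 ± 0.41 SE, limma adjusted p = 0.350). Cdx2, a factor of intestinal epithelium, had 0, 54.9 and 27.0 CPM in ERBB2 KO 1 to 3, against 19.9, 0 and 0 CPM in WT 1 to 3, at 0 in the same 3 libraries as Cldn3. Tfap2a had a log2 difference of 1.41, with 0 reads in WT 2 and WT 3. It was highest in WT 1, at 12.2 CPM, against 5.82, 6.70 and 3.74 CPM in ERBB2 KO 1 to 3. Foxa1 had a log2 difference of -0.28. Grhl2, which drives claudin expression in epithelia, had at most 0.519 CPM. Nkx2-1 was not analysed here. Of 5 tested factors known to repress claudins and E-cadherin 2 were above and 3 below 0 (median -0.13). Both above 0 had an unadjusted p under 0.05, beside 13.2% of all tested genes (5.96% higher), and neither passed the test. Twist2 had 63.3, 51.4 and 27.7 CPM in ERBB2 KO 1 to 3, against 28.0, 0.564 and 0.453 CPM in WT 1 to 3 (log2 difference 3.51 ± 1.11 SE, limma adjusted p = 0.347), and Snai1 had a log2 difference of 1.44. Snai1 was at 7.73, 19.5 and 14.5 CPM in ERBB2 KO 1 to 3, against 9.38, 4.83 and 1.28 CPM in WT 1 to 3, highest in the 3 libraries that held Cldn3. Snai2 and Zeb1 had -1.19 and -0.57. Zeb1 was at 65.0, 28.7 and 24.9 CPM in ERBB2 KO 1 to 3, against 29.8, 79.4 and 65.5 CPM in WT 1 to 3. It was lowest in those same 3 libraries, opposite to Snai1, and so were Snai2 and Zeb2. Snai2 had at most 19.2 CPM in the libraries that held Cldn3 and at least 42.7 CPM in the others. Zeb2 had at most 17.97 CPM in the libraries that held Cldn3 and at least 26.9 CPM in the others. Twist2 followed neither split.

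Markers of other cell types were read beside these values. All 6 fibroblast markers measured reached 1 CPM, with summed levels of 49.0 to 321 CPM in ERBB2 KO and 54.7 to 229 CPM in WT. All were tested, with 3 above and 3 below 0, and none was called (limma, lowest adjusted p = 0.321). The highest sum was in ERBB2 KO 1, where Dcn had 267 CPM. In that library Col1a1 and Col1a2 had 0.896 CPM each, against 2.66 to 7.65 CPM and 12.7 to 200 CPM in WT. The log2 difference was -1.54 for Col1a1 and -2.93 for Col1a2, but 2.84 for Col3a1 and 0.53 for Pdgfrb. The mesothelial marker Msln had 69.9 to 204 CPM in ERBB2 KO and 106 to 232 CPM in WT, while Wt1, the other mesothelial marker measured, had at most 0.224 CPM. All 4 endothelial markers were under 1 CPM in every library, and the leukocyte marker Ptprc had at most 0.415 CPM. Of the 4 leukocyte markers 3 reached 1 CPM, with sums of 12.5 to 43.7 CPM in ERBB2 KO and 13.5 to 22.2 CPM in WT. Of these Cd68 was higher without overlap, at 7.17, 4.41 and 4.88 CPM in ERBB2 KO 1 to 3, against 2.37, 1.53 and 1.21 CPM in WT 1 to 3 (limma, adjusted p = 0.321). Lyz2 was also higher without overlap, at 24.5, 1.02 and 1.77 CPM in ERBB2 KO 1 to 3, against 0.273, 0.0806 and 0.377 CPM in WT 1 to 3 (limma, adjusted p = 0.380). Like Cldn9, Lyz2 passed the filter on low values only through ERBB2 KO, so it had to differ to be tested. Csf1r ran the other way with overlap, at 7.04 to 11.99 CPM in ERBB2 KO and 10.7 to 20.6 CPM in WT. Over all tested genes, 8.76% were higher in ERBB2 KO without overlap. Of 5 markers of other lung epithelium only Ager reached 1 CPM, with at most 1.70 CPM. Of 3 markers of tuft-like SCLC measured only Sox9 was tested. It had 216, 28.3 and 17.4 CPM in ERBB2 KO 1 to 3, against 33.9, 149 and 198 CPM in WT 1 to 3 (limma, adjusted p = 0.656). The part of such differences between libraries in the claudin and keratin values was not tested.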

How the data were processed

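RNA of 6 cell libraries was sequenced by the authors. The submitters' processing notes name the build mm10, while the aligner and counting tool behind the expression values were not settled. In its RNA sequencing methods the study names alignment with Bwa and Samtools to GRCm39, which conflicts with mm10, in a passage that continues with mutation calling and exon coverage. Values deposited as CPM are log2 values made by the authors from CPM with a small prior, since all columns share a lowest value of -2.48. Raising 2 to the value and subtracting the floor of 0.179 CPM gave columns that summed to 999999.64, in which 100% of values above 0 were whole multiples of 1 read (within 0.1 of a read). Library totals follow from that step. Symbols turned into dates (14 rows, 0.0966% to 0.184% of reads) stayed in the totals and out of the tests. Coordinates, counted from 1, are those of the RefSeq gene table of GRCm38.p6, where all 34 members matched. No protein sequences were used here.

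All genes that reached 1 CPM in 3 or more libraries entered a limma fit of log2(CPM + 1) (lmFit and eBayes with trend, version 3.58.1 under R 4.3.3). Group was its single term, tests were two-sided, and p-values were adjusted over all tested genes by Benjamini-Hochberg at a threshold of 0.05. An exact permutation test of 3 against 3 libraries cannot go below 0.1. Intervals of single values are exact Poisson intervals from scipy 1.17.1 in Python 3.11.15. The fit was also run on simulated counts, with the same spread setting for all genes and replicates of a group alike. The real libraries did not group by genotype, so that run does not show how the fit behaves here. Members and gene lists were chosen with earlier results of these data known. Named were all members with at least 1 CPM in any library, with the values of all libraries for those with at least 10 CPM, or without overlap and with at least 3 CPM. Of each other list up to 4 tested genes with the smallest unadjusted p were named, besides a few that were always named (such as Tjp1, Cdh1 and Vim). Some further genes, such as Dcn, Lsr and Twist1, were named outside this rule. Alternatives were other pseudocounts, filters and scalings, the deposited scale, TMM factors with voom, array quality weights, a replicate block and leaving out libraries.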

Additional observations from a re-analysis of the deposited data

How the results depend on the processing

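The 12 tested members kept their direction under other pseudocounts, filters, quantile normalization and the deposited scale. Over all settings, 12 counts or medians moved beyond the limit set for them. A single member newly passed in 6 cases, which were those of Krt18, Krt8, Cldn9 and Cldn3. The difference of a single member changed sign in 16 cases. The medians, which carry no test, depended on the filter. Without it the claudin median was 0.13 and the keratin median -0.0011, against 1.30 and 0.18 with it, and on the deposited scale the claudin median was 2.27. With TMM factors and voom 1 member had an unadjusted p under 0.05 and the claudin median was 3.65, and the cause was not tested. With array quality weights 1759 genes and 4 members passed (limma), 6 members had an unadjusted p under 0.05, and Krt19 (1.22) and Krt80 (0.30) changed sign, the cause of which was not tested. Leaving out each library in turn gave 0 to 146 genes and 0 to 1 members passing, and 1 to 5 members with an unadjusted p under 0.05. The difference then ran from -2.30 to 1.10 for Krt19 and from -0.38 to 0.11 for Krt80. All passing genes came without ERBB2 KO 1 (30 genes) or without WT 1 (146 genes).

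With the 4 libraries of under 3 Xist reads, that is, all ERBB2 KO libraries against WT 1, 1 member had an unadjusted p under 0.05 (Krt7). There the differences were -0.42 for Krt18, -0.0092 for Cldn2, -0.42 for Krt8, -0.76 for Krt16, -1.65 for Cldn3 and -0.043 for Krt76. For ERBB2 KO 2 and 3 against WT 1 they were -0.42 for Krt18, -0.43 for Cldn2, -0.20 for Krt8, -0.19 for Krt16 and -0.50 for Krt76. Causes of these sign changes were not tested. The keratin median was -0.52 and -0.41 in these comparisons, and that of the claudins 0.30 and 0.07.

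Same-numbered libraries did not deviate together (correlations of -0.22, -0.16 and -0.05), so the numbers were not taken as pairs. With a replicate block 0 genes passed and 1286 had an unadjusted p under 0.05, among the members Krt7, Cldn9 and Krt76.

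Unadjusted p-values under 0.05 were reached by 1561 genes with all libraries, 4181 with array quality weights, 618 to 2473 without a single library and 253 with the 4 libraries of under 3 Xist reads. Depth limits the weak members, since 3 reads stand for 0.226 to 0.336 CPM.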

Other observations

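The 19 members under 1 CPM in every library were 7 claudins and 12 keratins. The highest of them was Krt20, a keratin of intestinal epithelium, with 0.910 CPM (10 reads) in WT 1 and 0 reads in the other 5 libraries. Krt13, a keratin of layered moist epithelia, had 0.784, 0.763 and 0.415 CPM in ERBB2 KO 1 to 3, against 0.364, 0.242 and 0 CPM in WT 1 to 3. The groups did not overlap, at 4 to 9 reads in ERBB2 KO and 0 to 4 reads in WT. The nearest libraries, ERBB2 KO 3 and WT 1, held 4 reads each and differ by less than counting error. Krt13 was not among the tested genes, of which 8.76% were higher in ERBB2 KO without overlap. Cldn4 and Cldn7, which are common in epithelia together with Cldn3, had at most 0.604 and 0.226 CPM, so the libraries that held Cldn3 held hardly any of these. Twist1, a repressor named after its values were seen, had 0 reads in all ERBB2 KO libraries and in WT 1, against 36.7 CPM in WT 2 and 24.5 CPM in WT 3, the same split of libraries as Xist.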
